A study of Mus musculus with 21 samples.

Results

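The genes described here encode the subunits of the proteasome and of its inducible form, the immunoproteasome, and their signals were followed across dendritic cells (DCs), B cells and T cells sorted from mouse spleen. Members were chosen by gene symbol, with earlier results of these data known. A list of 34 genes was used, and every probe set that the platform annotation tied to exactly 1 of those symbols was a member. This gave 70 of 34945 named probe sets, and they covered 33 of the 34 genes. Psme2 had no value, because its only listed probe set carried the symbols of both Psme2b and Psme2. A filter on low signals kept 63 of the 70 probe sets and left out 7, and at least 1 probe set of all 33 genes was kept. Of these genes, 19 had more than 1 probe set and 14 had 1, and each gene was represented by its probe set with the highest mean signal. The tested members were 7 subunits of the outer (alpha) rings of the 20S core, Psma1 to Psma7, and 7 of its inner (beta) rings, Psmb1 to Psmb7. The 19S cap gave 6 ATPases, Psmc1 to Psmc6, and 9 non-ATPase subunits of the Psmd family. The immunoproteasome members tested were 4: Psmb8, Psmb9, Psmb10 and the activator subunit Psme1.

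The proteasome is the barrel-shaped protease that degrades ubiquitinated proteins. The alpha rings gate its entrance, Psmb5, Psmb6 and Psmb7 carry the active sites of the beta rings, and the 19S cap binds, unfolds and feeds substrates into the core. In immune cells, and in other cells exposed to interferon gamma, Psmb8, Psmb9 and Psmb10 take the places of Psmb5, Psmb6 and Psmb7 in newly assembled cores. Psme1 and Psme2 together form the PA28 activator that can replace the cap. The immunoproteasome is known for making peptides that fit MHC class I molecules, which DCs use to present antigen to CD8 T cells.

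The data were 21 Affymetrix arrays in 7 groups of 3. The antibody 33D1 marks the CD8-negative DCs of the spleen and DEC205 marks its CD8-positive DCs. The 33D1 DCs and the DEC205 DCs each came from C57BL/6 mice injected with a melanoma named with Flt3L in the labels, killed 10 to 12 days later, and from wild-type C57BL/6 mice. Flt3L is the growth factor that expands DCs, and in these mice it came together with a tumour, so the ligand and the tumour cannot be told apart. B cells, CD8 T cells and CD4 T cells came from wild-type C57BL/6 mice. Each array held RNA of a pool of 20 Flt3L mice for DCs, of 40 to 80 wild-type mice for DCs, and of 5 to 8 wild-type mice for lymphocytes. Whether the pools of 1 group came from separate mice and sorts is not stated in the labels, so p-values measure the spread between pools only, and some of that spread may be technical.

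The promoters of the inducible catalytic subunits are shown because Psmb8 and Psmb9 differed between the DC subsets while no difference was called for Psmb10. Sequences are from RefSeq on GRCm38.p6, which listed promoters for 29 of the 34 members. Psmb9 and Tap1, a subunit of the transporter that carries peptides to MHC class I, lie head to head in the MHC, and the bases between their starts were read on the plus strand at chr17:34187331-34187555. The Psmb8 window was chr17:34197945-34198194 on the plus strand and the Psmb10 window was chr8:105938393-105938642 on the minus strand, each the 250 bases before a listed start. Capitals mark matches, on either strand, to the 5 motifs searched: GAS (TTCNNNGAA), ISRE core (GAAA, any 2 bases, GAAA), ETS-IRF composite (GGAA, any 2 bases, GAAA), GC box (GGGCGG) and CCAAT.
Psmb9-Tap1: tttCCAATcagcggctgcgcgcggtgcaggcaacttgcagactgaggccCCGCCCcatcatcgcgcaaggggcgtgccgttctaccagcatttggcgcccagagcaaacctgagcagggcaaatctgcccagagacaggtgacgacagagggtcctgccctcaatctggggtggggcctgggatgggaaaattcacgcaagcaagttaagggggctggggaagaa
Psmb8: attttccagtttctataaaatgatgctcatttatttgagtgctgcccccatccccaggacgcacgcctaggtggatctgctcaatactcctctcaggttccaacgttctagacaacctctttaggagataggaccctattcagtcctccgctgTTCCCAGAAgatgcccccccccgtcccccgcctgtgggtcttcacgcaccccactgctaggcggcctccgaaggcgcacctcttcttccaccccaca
Psmb10: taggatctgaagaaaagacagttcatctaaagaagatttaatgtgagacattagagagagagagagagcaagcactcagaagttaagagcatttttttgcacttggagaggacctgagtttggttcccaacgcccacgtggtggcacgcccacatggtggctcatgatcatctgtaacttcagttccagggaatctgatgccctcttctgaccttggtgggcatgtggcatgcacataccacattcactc

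The interval shared by Psmb9 and Tap1 held 1 CCAAT match and 1 GC box, read here as its reverse complement. The Psmb8 window held 1 GAS match, a letter pattern named for interferon-gamma-activated sites. The Psmb10 window held no match to the 5 motifs. Over the 250 bases before each start, GAS letters occurred in 7.02% of the 32851 promoters in the table and in 1 of 32 member promoters, that of Psmb8. ISRE core letters occurred in 2.98% of all promoters and in 2 of the 32, those of Psmb3 and Psmd4, and ETS-IRF letters in 2.3% of all and in 1 of the 32, that of Psmc2. The GC box stood in 17 of the 32 member promoters, Psmb9, Psme1 and Psme2 among them, and in 32.7% of all. CCAAT stood in 11 of the 32, Psmb9 among them, and in 33.8% of all. A match describes letters only, and the motif search was not tested against expression.

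Values are linear MAS5 signals, the brightness of a probe set, and the deposited arrays were already scaled to a common brightness. Array medians lay between 121.9 and 204.4, and arrays of a group correlated with r between 0.949 and 0.979 on the log2 scale. The description field of the lymphocyte samples calls them DCs, but the summed signal of 4 B cell markers was 82898 to 94597 in B cells and at most 2633 elsewhere. The sum of 5 T cell markers was 51573 to 79713 in T cells and at most 367.4 elsewhere. Both DC sorts carried their own markers, yet 1 array of each kind also carried some of the other subset's. Array 3 of wild-type DEC205 DCs had a summed signal of 6832 over 7 markers of 33D1 DCs, against 1786 and 2486 on its fellow arrays and 79967 to 86591 in wild-type 33D1 DCs. Array 3 of Flt3L 33D1 DCs had a sum of 4464 over 7 markers of DEC205 DCs, against 1995 and 2516 on its fellows and 69643 to 74322 in Flt3L DEC205 DCs. The wild-type DEC205 array also had the highest sums of its group for 4 neutrophil markers, at 2882 against 681.9 and 709.7, and for 3 proliferation markers, at 9987 against 5015 and 5737. In wild-type 33D1 DCs, array 2 had the highest neutrophil sum, at 1683 against 633 and 644. The total of members called in each comparison that uses either array with markers of the other subset is given with and without it. The counts by role, gene list, overlap and highest group were made with all arrays and recomputed without both, a check added after the data had been seen, and those that moved by over 1.5 times are given beside the counts. In RNA from sorted populations, a lower signal from fewer cells of one kind and from less RNA per cell cannot be told apart.

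Across the 7 groups, most proteasome genes had their highest mean signal in DEC205 DCs. Of the 33 members, 25 had their highest group mean in a DEC205 group, 17 of them in wild-type mice and 8 in Flt3L mice, and 2 had it in a 33D1 group. The other 6 were highest in lymphocytes, 4 in CD8 T cells, 1 in B cells and 1 in CD4 T cells. Without both arrays, 25 members were again highest in a DEC205 group. The lowest mean lay in a 33D1 group for 14 members, in CD4 T cells for 7, in CD8 T cells for 6 and in B cells for 5. Psmb10 alone was lowest in a DEC205 group. The highest and lowest groups were not counted over all genes, so whether these counts are particular to the members was not tested. The distance between the highest and the lowest group mean was widest for Psmb9, at 1.66 on the log2 scale, followed by Psmb7 at 1.12, Psmb8 at 0.96, Psma1 at 0.94 and Psme1 at 0.92. It was narrowest for the ubiquitin receptor Psmd4 at 0.19 and the ATPase Psmc5 at 0.25.

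**Figure D1:**
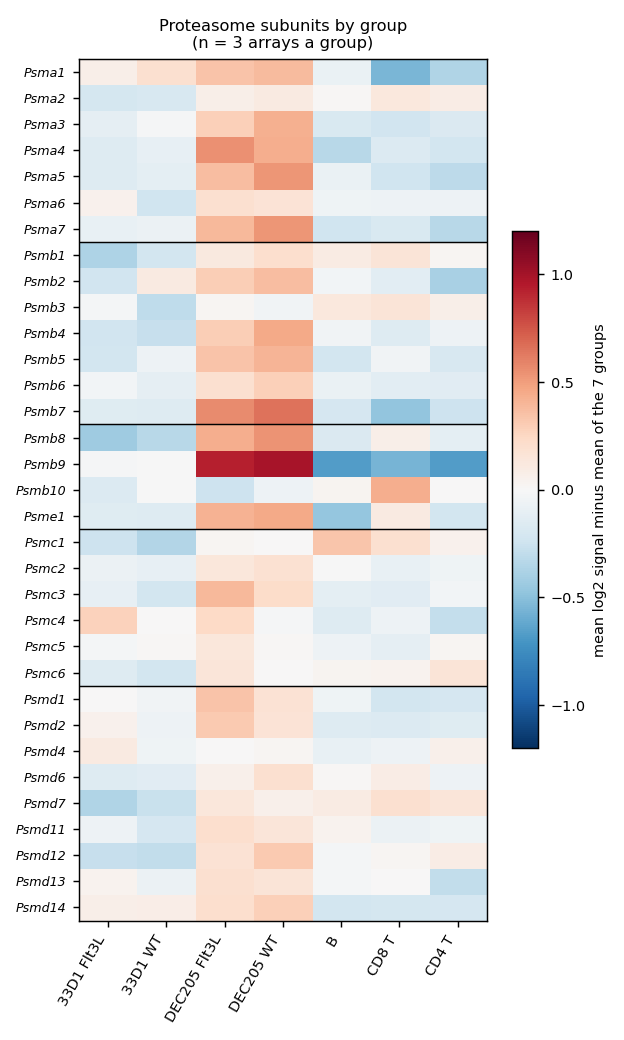
Mean log2 signal of each of the 7 groups minus the mean of the 7 group means, for 33 proteasome genes ordered by role, with 33D1 columns left of DEC205 columns. Most genes were highest in the DEC205 columns, and Psmb9 spanned 1.66 between its highest and lowest group.

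Among the inducible catalytic subunits, Psmb8 and Psmb9 were lower in 33D1 DCs than in DEC205 DCs, and for Psmb10 no difference was called. Psmb8, which replaces the chymotrypsin-like subunit, gave 8325, 7432 and 7641 signal units on the 3 arrays of wild-type 33D1 DCs, against 13157, 14206 and 15635 in wild-type DEC205 DCs. In Flt3L mice it gave 7499, 6769 and 7711 in 33D1 DCs and 13043, 13048 and 13986 in DEC205 DCs. No 33D1 array reached the lowest DEC205 array. On the log2(signal + 48.6) scale, the 33D1 minus DEC205 difference was -0.87 ± 0.12 (standard error; limma, adjusted p = 8.8e-06) in wild-type mice, 1.83-fold lower in 33D1 DCs. In Flt3L mice Psmb8 differed by -0.86 ± 0.12 (limma, adjusted p = 1e-05), 1.82-fold lower. Of the 9 further probe sets of members called here, 8 had the same sign in wild-type mice and 4 were called, and 5 of 9 had it in Flt3L mice with 4 called. One of them, a second Psmb8 probe set, was also lower in both mouse types, by -0.93 in wild-type (limma, adjusted p = 0.049) and -1.05 in Flt3L mice (limma, adjusted p = 0.024).

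Psmb9, which replaces the caspase-like subunit, showed the largest difference of the members. Wild-type 33D1 DCs had Psmb9 signals of 9433, 8134 and 8065, against 17214, 17124 and 16779 in wild-type DEC205 DCs. Flt3L 33D1 DCs had 9038, 8064 and 8370.5 and Flt3L DEC205 DCs 18439, 15146 and 15894. Again the subsets did not overlap. The Psmb9 difference was -0.995 ± 0.14 in wild-type mice (1.99-fold lower in 33D1 DCs; limma, adjusted p = 6.8e-06) and -0.95 ± 0.14 in Flt3L mice (1.93-fold lower; limma, adjusted p = 1.3e-05).

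Psmb10, which replaces the trypsin-like subunit, gave 4003, 3620.1 and 3652 in wild-type 33D1 DCs and 3744, 3556 and 3536 in wild-type DEC205 DCs. In Flt3L mice it gave 3339.8, 3340.2 and 3395 in 33D1 DCs and 3689, 2772 and 3117 in DEC205 DCs. The subsets overlapped in both mouse types. The differences were 0.06 ± 0.13 in wild-type (limma, adjusted p = 0.85) and 0.08 ± 0.13 in Flt3L mice (limma, adjusted p = 0.75), and both turned slightly negative when arrays were centred on their medians.

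Psme1, the partner of Psme2 in the PA28 ring, followed Psmb8 and Psmb9. Its signals were 11251, 11369 and 11095 in wild-type 33D1 DCs, against 15516, 17230.1 and 18829 in wild-type DEC205 DCs. In Flt3L mice they were 10762, 11108 and 11956 in 33D1 DCs and 16685, 16673 and 16648 in DEC205 DCs. Every 33D1 array lay below every DEC205 array. The differences were -0.61 ± 0.12 in wild-type (1.52-fold lower in 33D1 DCs; limma, adjusted p = 0.00039) and -0.56 ± 0.12 in Flt3L mice (1.48-fold lower; limma, adjusted p = 0.00083).

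**Figure D2:**
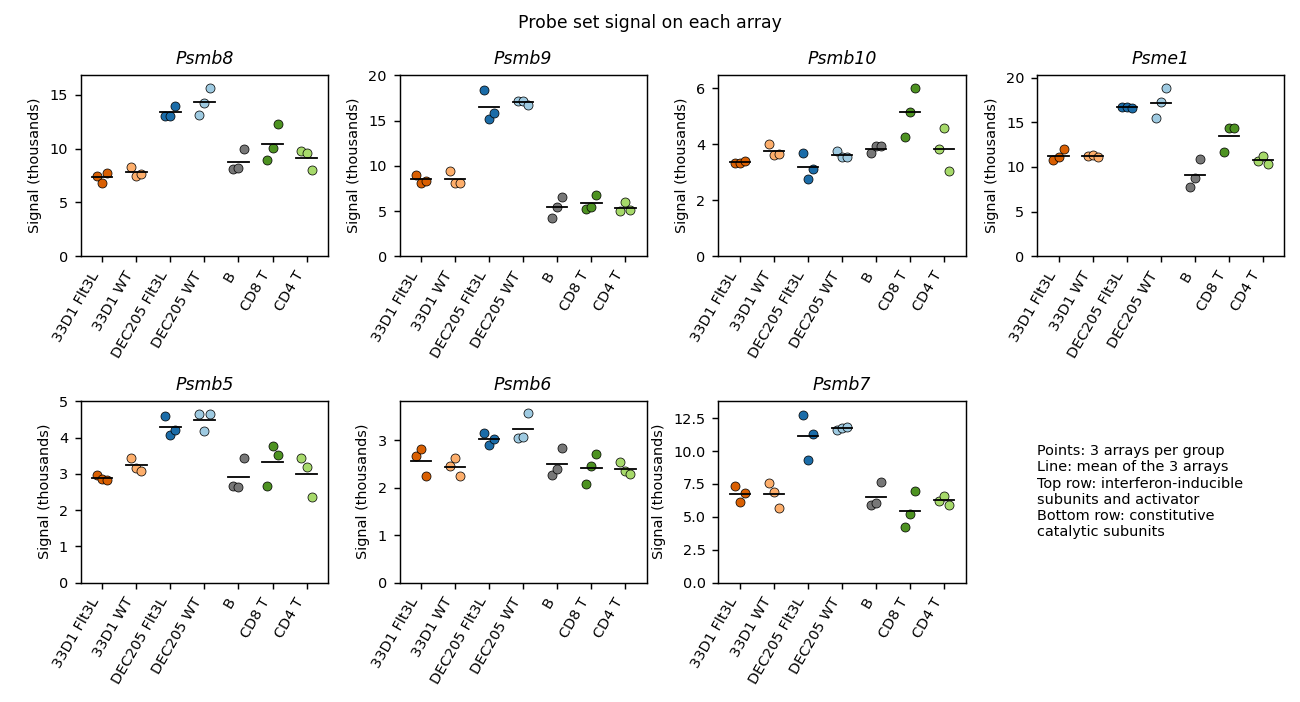
MAS5 signal (axis in units of 1000) for Psmb8, Psmb9, Psmb10, Psme1 and the constitutive catalytic subunits Psmb5, Psmb6 and Psmb7, by group, with 1 point per array (3 a group) and a line at the group mean. Psmb8 and Psmb9 arrays of 33D1 DCs lie below all DEC205 DC arrays, while Psmb10 arrays of the subsets overlap.

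Of the constitutive catalytic subunits, Psmb5 and Psmb7 were lower in 33D1 DCs in both mouse types, and Psmb6 was called lower in wild-type mice. Psmb5, the chymotrypsin-like subunit, had signals of 3444, 3162 and 3086 in wild-type 33D1 DCs and 4658, 4172 and 4655 in wild-type DEC205 DCs, and 2966, 2863 and 2842 in Flt3L 33D1 DCs against 4593, 4064 and 4220.5 in Flt3L DEC205 DCs. The subsets did not overlap, and the differences were -0.47 ± 0.14 in wild-type (limma, adjusted p = 0.016) and -0.56 ± 0.14 in Flt3L mice (limma, adjusted p = 0.0043).
Psmb7, the trypsin-like subunit, had 7589.7, 6906 and 5667 in wild-type 33D1 DCs and 11569, 11782 and 11864 in wild-type DEC205 DCs, and 7354, 6094 and 6805 in Flt3L 33D1 DCs against 12733, 9302 and 11327 in Flt3L DEC205 DCs. The arrays did not overlap in either mouse type. This was the largest difference among the core and cap subunits in wild-type mice, at -0.81 ± 0.16 (1.75-fold lower in 33D1 DCs; limma, adjusted p = 0.00041), and it was -0.71 ± 0.16 in Flt3L mice (limma, adjusted p = 0.0016).
Psmb6, the caspase-like subunit, had 2459, 2626 and 2251 in wild-type 33D1 DCs and 3061, 3068 and 3579 in wild-type DEC205 DCs, which did not overlap, and differed by -0.40 ± 0.12 (limma, adjusted p = 0.017). In Flt3L mice Psmb6 had 2673, 2813 and 2243 in 33D1 DCs and 3153, 2898 and 3024 in DEC205 DCs, and although the arrays did not overlap, the difference of -0.23 ± 0.12 was not called (limma, adjusted p = 0.18).

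The balance of each inducible subunit to the subunit it replaces was then compared within arrays, as the log2 ratio of their signals. Probe sets differ in how they bind their target, so only differences of a ratio between groups can be read, not its level. The Psmb8 over Psmb5 ratio was lower in 33D1 DCs by -0.35 on average, -0.40 in wild-type mice and -0.30 in Flt3L mice. The Psmb9 over Psmb6 ratio was lower by -0.66, with -0.60 for wild-type mice and -0.72 for Flt3L mice. The Psmb10 over Psmb7 ratio ran the other way and was higher in 33D1 DCs by 0.83, with 0.87 in wild-type and 0.79 in Flt3L mice. Of this pair only Psmb7 was called between the subsets, lower in 33D1 DCs, so the higher ratio mostly restates the Psmb7 difference. For all 3 ratios, the 6 arrays of 33D1 DCs did not overlap the 6 arrays of DEC205 DCs. An exact two-sided permutation test with the subset labels exchanged within each mouse type gave p = 0.005 for each ratio (adjusted p = 0.005 over the 3), the smallest that its 400 arrangements allow.

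Relative to the median of the 21 arrays, the Psmb9 over Psmb6 ratio averaged 0.09 in Flt3L and 0.17 in wild-type 33D1 DCs, 0.81 in Flt3L and 0.77 in wild-type DEC205 DCs, and -0.52 in B cells, -0.35 in CD8 T cells and -0.47 in CD4 T cells. Its order was therefore DEC205 DCs, 33D1 DCs, then lymphocytes, with no overlap between these 3 blocks of arrays. The Psmb10 over Psmb7 ratio averaged -0.07 and 0.10 in Flt3L and wild-type 33D1 DCs, -0.86 and -0.76 in Flt3L and wild-type DEC205 DCs, 0.18 in B cells, 0.85 in CD8 T cells and 0.21 in CD4 T cells. It was highest in CD8 T cells and lowest in DEC205 DCs, while arrays of 33D1 DCs, B cells and CD4 T cells overlapped. The Psmb8 over Psmb5 ratio varied least, with -0.20 and -0.26 in Flt3L and wild-type 33D1 DCs, 0.11 and 0.14 in Flt3L and wild-type DEC205 DCs, and 0.05, 0.12 and 0.09 in B, CD8 T and CD4 T cells. Only the 33D1 groups averaged below the median for that pair.

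**Figure D3:**
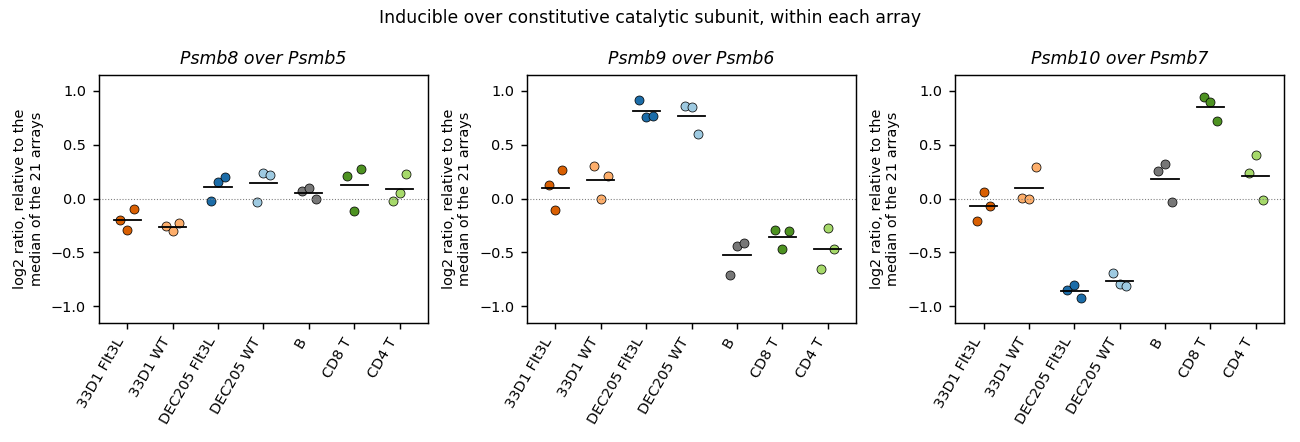
Log2 ratio of each inducible catalytic subunit to its constitutive counterpart, relative to the median of the 21 arrays, by group, with 1 point per array and a line at the group mean. Psmb9 over Psmb6 is lower in 33D1 than in DEC205 DCs (-0.66 on average) and Psmb10 over Psmb7 is higher (0.83). Of the latter pair only Psmb7 was called, lower in 33D1 DCs.

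Taking all members in wild-type mice, 16 of the 33 were lower in 33D1 DCs than in DEC205 DCs and 0 were higher, where 11.8% of all 13284 genes tested were called lower and 11.3% higher. The median difference was -0.34 over the members and 0.04 over all genes. Of the members, 31 had a negative difference, and for 23 every 33D1 array lay below every DEC205 array, against 19% of all genes. The immunoproteasome members had 3 of 4 called and a median of -0.74. The core and cap subunits had 13 of 29 called and a median of -0.33, a smaller median of the same sign, and no test compared these lists. Relative to the median of all genes, the core and cap median was -0.37, and -0.26 with quantile normalization.

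By role, the alpha ring had 4 of 7 members lower in wild-type 33D1 DCs (median -0.44), the beta ring 5 of 7 (median -0.43), the cap ATPases 2 of 6 (median -0.26) and the cap non-ATPases 2 of 9 (median -0.22). Psma5, an alpha ring subunit, had the lowest adjusted p of the core. Its signals were 4231, 4603 and 5385 in 33D1 DCs, against 7259, 7652 and 7418 in DEC205 DCs, a gap with no overlap and a difference of -0.65 ± 0.11 (limma, adjusted p = 0.00011). The other alpha subunits called were Psma7 (-0.60), Psma4 (-0.53) and Psma3 (-0.44). In the beta ring, the non-catalytic Psmb4 (-0.73) and Psmb1 (-0.43) fell beside Psmb5, Psmb6 and Psmb7, while Psmb2 and Psmb3 were not called. The probe set that stands for Psmb4 can match related transcripts. The Psmb4 call held in 33 of 33 alternatives in wild-type mice (-0.90 to -0.62), the mean of probe sets among them, and was lost in 6 of 33 in Flt3L mice. The Psmb1 call was lost in 18 of 33 alternatives (differences of -0.52 to -0.24; limma, highest adjusted p = 0.247). Without both arrays that carried markers of the other subset, 2 of 7 beta ring subunits, 0 of 6 cap ATPases and 1 of 9 cap non-ATPases were called, 7 of the 29 core and cap subunits. Of all genes, 19.4% were then called in either direction. That share counts higher genes too, while all 7 of these subunits were lower, so the measures are not alike. In the cap, the lid subunit Psmd12 gave 1577, 1572 and 1479 in 33D1 DCs and 2369.8, 2291 and 2496 in DEC205 DCs, again without overlap, a difference of -0.61 ± 0.11 (limma, adjusted p = 0.00018). The lid subunit Psmd11 (-0.34) and the ATPases Psmc3 (-0.44) and Psmc1 (-0.36) were the other cap members called. The deubiquitinase of the lid, Psmd14, was not called (difference -0.21 ± 0.12; limma, adjusted p = 0.26).

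In Flt3L mice 15 of the 33 members were lower in 33D1 DCs and 0 were higher, against 11.8% lower and 11.7% higher among all genes. The median was -0.30 over the members and 0.04 over all genes, and 30 members had a negative difference. For 21 members every 33D1 array lay below every DEC205 array, against 19.4% of all genes. The immunoproteasome members again had 3 of 4 called with a median of -0.71, and the core and cap subunits 12 of 29 with a median of -0.28. Relative to the median of all genes, the core and cap median was -0.32, and -0.24 with quantile normalization. By role the counts were 4 of 7 in the alpha ring, 5 of 7 in the beta ring, 1 of 6 cap ATPases and 2 of 9 cap non-ATPases. Without both arrays, 2 of 7 beta ring subunits and 0 of 6 cap ATPases were called, and 7 of the 29 core and cap subunits. Of all genes, 19.5% were then called in either direction. Higher genes are part of that share, while all 7 of these subunits were lower, so the measures are not alike. Psma4 had the lowest adjusted p of the core here, with signals of 4341, 4405 and 4197 in 33D1 DCs against 7646, 6922 and 6756 in DEC205 DCs. The arrays did not overlap, and the difference was -0.71 ± 0.11 (1.64-fold lower in 33D1 DCs; limma, adjusted p = 2.5e-05).

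The 2 subset comparisons, in wild-type mice and in Flt3L mice, share no arrays. They had 13 lowered members in common, which is 86.7% of the 15 in Flt3L mice and 81.2% of the 16 in wild-type mice. Over all genes, 1195 were lower in both, 76.3% of the 1567 of each. The members' overlap is thus near that of all genes. Without both arrays, 8 members were lower in both mouse types. Calls made in Flt3L mice and not in wild-type mice were Psmb2 and the lid subunit Psmd7, and calls made in wild-type mice and not in Flt3L mice were Psmb6, Psmc1 and Psmd11. The difference between mouse types was itself tested, as given below, and was not called for these genes.

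Without array 3 of wild-type DEC205 DCs, 10 members were called lower in wild-type mice, and without array 3 of Flt3L 33D1 DCs, 11 were in Flt3L mice. With arrays centred on their medians the counts were 7 in Flt3L mice and 9 in wild-type mice, all lower. Of all genes, 16.4% in Flt3L mice and 15.9% in wild-type mice were then called in either direction. These shares include higher genes, so they are not a like measure for member counts that were all lower. Psmb8, Psmb9, Psme1, Psmb7, Psma4 and Psma5 were called in both mouse types under every alternative run, a left-out array included. Some macrophage markers differed between the subsets. The summed signal of 5 macrophage markers was 16683 to 21283 in wild-type 33D1 DCs and 6954 to 9241 in wild-type DEC205 DCs, with Adgre1 and Csf1r called higher, 2 others of the 5 called lower, and none at 0. No proliferation marker was called. The sum of 3 proliferation markers was 8343 to 9628 in wild-type 33D1 DCs and 5015 to 9987 in wild-type DEC205 DCs, which overlapped. In Flt3L mice the macrophage sum was 15926 to 18392 in 33D1 and 5229 to 5525 in DEC205 DCs, with 3 of 5 called higher and 1 lower, and the proliferation sum was 15719 to 17566 in 33D1 and 9652 to 12572 in DEC205 DCs, without overlap and with 0 of 3 called. The part of such cells in the proteasome result was not tested.

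**Figure D4:**
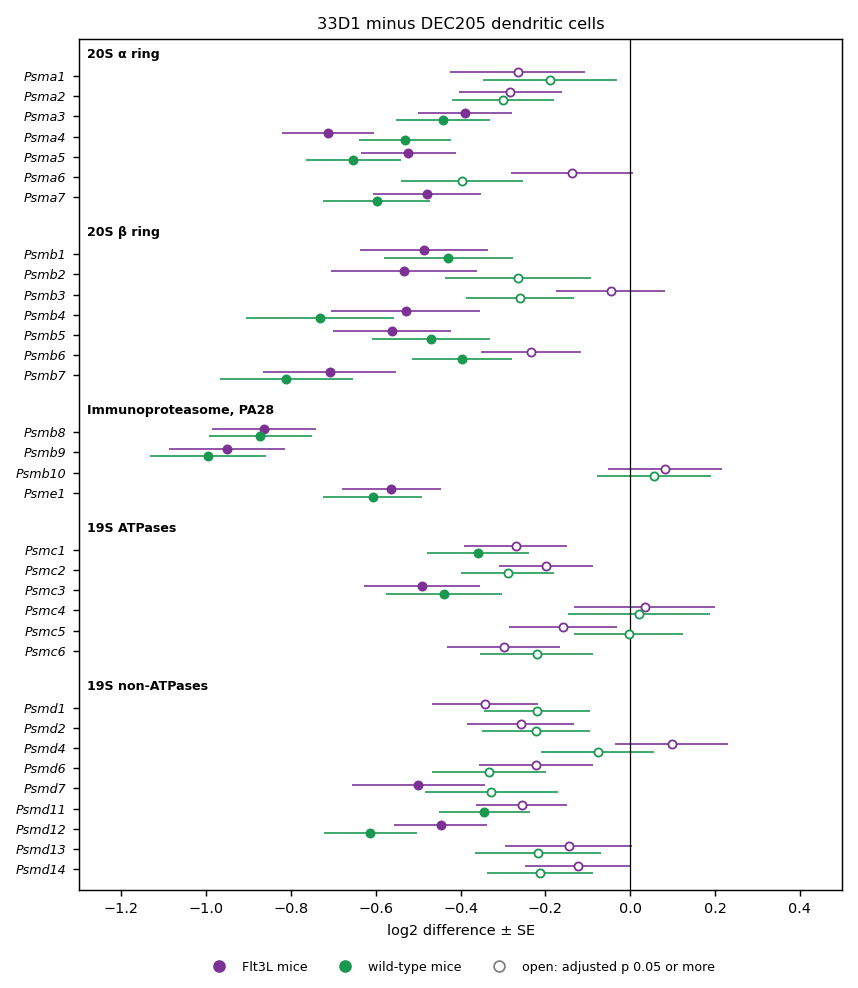
Log2 difference of 33D1 minus DEC205 DCs with its standard error for 33 proteasome genes by role, in Flt3L mice (purple) and wild-type mice (green), with open points for an adjusted p of 0.05 or more. Nearly all points lie below 0, with Psmb9 and Psmb8 farthest out, while Psmb10 lies near 0 (0.08 with Flt3L, 0.06 in wild-type).

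Injection of the Flt3L melanoma was not accompanied by a called change of any proteasome gene. Few of all genes were called either, so the counts of 0 in 33 below lie near the shares of all genes. In 33D1 DCs 0 of 33 members were called between Flt3L and wild-type mice, where 1.01% of all genes were, and 1 member had an unadjusted p under 0.05, the beta subunit Psmb3 (0.28 ± 0.13; limma, adjusted p = 0.44). In DEC205 DCs 0 of 33 were called, where 2.11% of all genes were, and 0 had an unadjusted p under 0.05. The Flt3L minus wild-type difference of Psmb8 was -0.09 ± 0.12 in 33D1 and -0.10 ± 0.12 in DEC205 DCs. That of Psmb9 was -0.01 ± 0.14 in 33D1 and -0.05 ± 0.14 in DEC205 DCs. Psmb10 differed by -0.16 ± 0.13 in 33D1 DCs, where every Flt3L array lay below every wild-type array (limma, adjusted p = 0.79), and by -0.18 ± 0.13 in DEC205 DCs (limma, adjusted p = 0.67). The summed proliferation signal was 15719 to 17566 in Flt3L 33D1 DCs against 8343 to 9628 in wild-type 33D1 DCs, with 0 of 3 markers called. The macrophage sum was 5229 to 5525 in Flt3L DEC205 DCs against 6954 to 9241 in wild-type DEC205 DCs, with 3 of 5 markers called lower. The part of either in these values was not tested. Whether the subset difference itself depended on the mouse type was tested as an interaction, and 0 of 33 members were called, where 0.105% of all genes were, with 0 at an unadjusted p under 0.05. The interaction was 0.01 ± 0.17 for Psmb8, 0.05 ± 0.19 for Psmb9, 0.03 ± 0.19 for Psmb10 and 0.04 ± 0.16 for Psme1. A difference within these errors was not detectable with 3 arrays a group.

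Against B cells, the mean of both wild-type DC subsets was higher for 11 of the 33 members and lower for 2, where 18.8% of all genes were called higher and 21.1% lower. The median difference was 0.12 over the members and -0.06 over all genes. Psmb9 ranged over 8065 to 17214 on the 6 wild-type DC arrays, against 4285, 5452 and 6594 in B cells, which all lay below, and the difference was 1.16 ± 0.12 (2.24-fold higher in DCs; limma, adjusted p = 3.9e-08). Psme1 ranged over 11095 to 18829 in wild-type DCs, against 7789, 8723 and 10852 in B cells, also without overlap (0.62 ± 0.10; limma, adjusted p = 3.2e-05). Psmb8 was called, a call lost in 9 of 32 alternatives, but its arrays overlapped, with 7432 to 15635 in wild-type DCs and 8104, 8166 and 9919.6 in B cells (0.28 ± 0.11; limma, adjusted p = 0.039). Psmb10 ranged over 3536 to 4003 in wild-type DCs, against 3682, 3943 and 3924 in B cells, and was not called (-0.06 ± 0.12; limma, adjusted p = 0.72).

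Among the core and cap subunits, 8 of 29 were higher in DCs than in B cells and 2 lower. Psma4 ranged over 4303 to 6975 in wild-type DCs, against 3722, 3592 and 4132 in B cells, with no overlap (0.50 ± 0.09; limma, adjusted p = 0.00014). The other 7 called higher were Psma7 (0.47), Psmb7 (0.45), Psmd14 (0.40), Psmb5 (0.39), Psma3 (0.38), Psma1 (0.37) and Psma5 (0.29). The ATPase Psmc1 went against them, with 829 to 1338 in wild-type DCs and 1348, 1485 and 1747 in B cells (-0.51 ± 0.10; limma, adjusted p = 0.00043), as did Psmb3 (-0.30; limma, adjusted p = 0.037). Without array 2 of B cells, 8 members were called in all, and without array 3 of wild-type DEC205 DCs, 12. With arrays centred on their medians, 4 were higher and 0 lower, where 31% of all genes were called in either direction.

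The 2 subsets were also set against B cells one at a time, a comparison added after the data had been seen. For 33D1 DCs 2 members were higher, Psmb9 (0.66 ± 0.14) and Psme1 (0.31 ± 0.12), and 2 lower, Psmc1 (-0.69 ± 0.12) and Psmb3 (-0.43 ± 0.13), where 15.8% of all genes were higher and 18.3% lower. The Psme1 call was lost in 9 of 32 alternatives. For DEC205 DCs 14 were higher and 1, Psmc1, was lower, where 18.3% of all genes were higher and 20.7% lower. In DEC205 DCs Psmb9 was 3.16-fold higher than in B cells (1.66 ± 0.14; limma, adjusted p = 1.3e-09), Psme1 differed by 0.92 ± 0.12 (limma, adjusted p = 1.1e-06), and Psmb8 by 0.71 ± 0.12 (limma, adjusted p = 5.3e-05). Psmb8 was not called between 33D1 DCs and B cells (-0.16 ± 0.12; limma, adjusted p = 0.37). Psma7 gave 5600.3, 5178 and 5098 in DEC205 DCs and 2727, 2762 and 3909 in B cells, with no overlap (0.77 ± 0.13; limma, adjusted p = 3.6e-05). With quantile normalization, the 33D1 count against B cells was 4 higher and 6 lower, where 35.1% of all genes were called in either direction. Without array 3 of wild-type DEC205 DCs, the DEC205 count was 11 higher and 1 lower.

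Against the mean of CD8 and CD4 T cells, the mean of both wild-type DC subsets was higher for 13 members and lower for 4, where 22.7% of all genes were called higher and 30% lower. The median difference was 0.17 over the members and -0.14 over all genes, and the core and cap median was 0.31 above that of all genes. With quantile normalization that gap was 0.12. Psmb9, at 8065 to 17214 in wild-type DCs, gave 5271, 5486 and 6829.6 in CD8 and 4989, 6038 and 5107 in CD4 T cells, with no overlap (1.10 ± 0.10, 2.15-fold higher in DCs; limma, adjusted p = 1.9e-09). The alpha subunit Psma1 ranged over 5656 to 7227 in wild-type DCs, against 2473, 3854 and 4309 in CD8 and 4178, 3611 and 4072 in CD4 T cells. It did not overlap either (0.75 ± 0.11; limma, adjusted p = 6.4e-06).

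Psma5 ranged over 4231 to 7652 in wild-type DCs, against 3987, 4283 and 4782 in CD8 and 4438, 4247 and 3715 in CD4 T cells, and the T cells overlapped arrays of 33D1 DCs and none of DEC205 DCs (0.48 ± 0.08; limma, adjusted p = 2e-05). Psmb7 ranged over 5667 to 11864 in wild-type DCs, against 4218, 5228 and 6961 in CD8 and 6198, 6602 and 5922 in CD4 T cells, and overlapped in the same way (0.61 ± 0.11; limma, adjusted p = 6.8e-05). The members lower in DCs were Psmb3 (-0.29), Psmc1 (-0.29), Psmd7 (-0.27) and Psmb10. The Psmd7 call was lost in 21 of 32 alternatives (limma, highest adjusted p = 0.646) and the Psmb10 call in 11 of 32 (limma, highest adjusted p = 0.707). Psmb10 ranged over 3536 to 4003 in wild-type DCs, against 4272, 5140.2 and 6021 in CD8 and 3834, 4584 and 3063 in CD4 T cells, with overlap (-0.25 ± 0.09; limma, adjusted p = 0.032). Psmb8 was not called, with 7432 to 8325 in 33D1 DCs, 13157 to 15635 in DEC205 DCs, 8954, 10041 and 12298 in CD8 and 9779, 9599 and 8005 in CD4 T cells (0.12 ± 0.09; limma, adjusted p = 0.25). Centring arrays on their medians moved the median of all genes by 0.16 and gave 13 higher and 0 lower, and quantile normalization gave 10 higher and 6 lower, so the count called lower depended on the scaling. That shift was 0.12 for 33D1 DCs minus T cells, 0.21 for DEC205 DCs minus T cells and 0.14 for B minus T cells. Without array 3 of wild-type DEC205 DCs, 11 members were higher and 2 lower. Of all genes, 43.5% were called in either direction with median centring and 51.6% with quantile normalization.

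Set against T cells one at a time, also after the data had been seen, the subsets gave unlike counts. For 33D1 DCs 3 members were higher and 7 lower, where 19.5% of all genes were higher and 24.7% lower. The higher ones were Psma1 (0.65 ± 0.14; limma, adjusted p = 0.00044), Psmb9 (0.60 ± 0.12; limma, adjusted p = 0.00021) and Psmd14 (0.28 ± 0.11). The lower ones were Psmc1 (-0.47), Psmd7 (-0.43), Psmb3 (-0.42), Psmd12 (-0.35), Psmc6 (-0.32), Psmb8 (-0.31) and Psma2 (-0.30). Psmc6 reversed when the probe sets of a gene were averaged. The core and cap median was 0.02 here and turned to -0.02 with quantile normalization, and with median centring the count was 2 higher and 0 lower. Median centring called 34.9% of all genes in either direction. Without array 2 of wild-type 33D1 DCs the count was 6.

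For DEC205 DCs 19 members were higher than in T cells and 0 lower, where 21.7% of all genes were higher and 27.5% lower. Psmb9 was 3.03-fold higher (1.60 ± 0.12; limma, adjusted p = 1.3e-10) and Psmb7 2.02-fold (1.02 ± 0.14; limma, adjusted p = 1.5e-06). Psma5 (0.81 ± 0.10), Psma7 (0.79 ± 0.11), Psmb8 (0.56 ± 0.11) and Psme1 (0.51 ± 0.10) were also called. Psmb10 was not (-0.28 ± 0.12; limma, adjusted p = 0.053). Psmc2, an ATPase whose probe set can match related transcripts, reversed when probe sets were averaged. The probe sets that stand for Psma6 and Psmb4 are of the same kind. With quantile normalization the count was 15 higher and 3 lower, and without array 3 of wild-type DEC205 DCs it was 14 higher and 0 lower. Quantile normalization called 47.8% of all genes in either direction. The summed signal of 3 proliferation markers was 5015 to 9987 in wild-type DCs and 309.3 to 1815 in B and T cells, with 3 of 3 called higher against either. That of 5 macrophage markers was 6954 to 21283 in wild-type DCs and 999.3 to 1805 in B and T cells, with 4 of 5 called higher against B cells and 5 of 5 against T cells. That of 4 neutrophil markers was 633 to 2882 in wild-type DCs and 292.6 to 561.2 in B and T cells, with 2 of 3 tested called higher against either. The part of these markers' cells in the differences from lymphocytes was not tested.

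**Figure D5:**
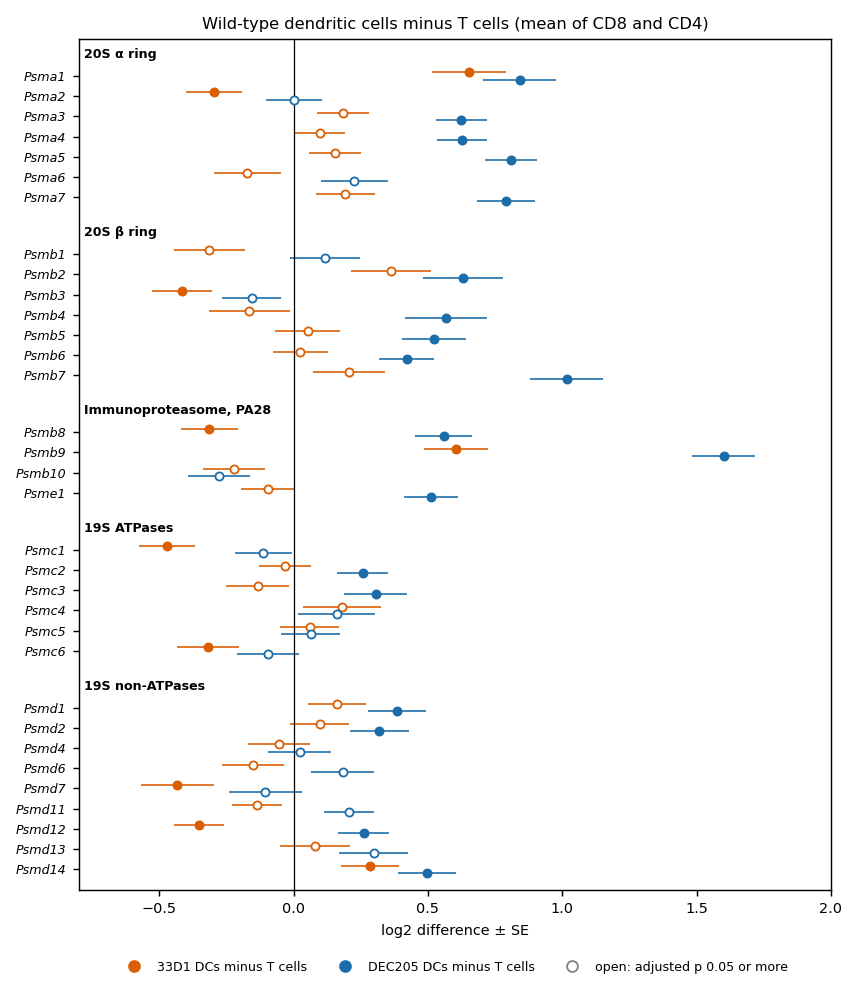
Log2 difference from the mean of CD8 and CD4 T cells with its standard error for 33 proteasome genes by role, for wild-type 33D1 DCs (orange) and wild-type DEC205 DCs (blue), with open points for an adjusted p of 0.05 or more. Psmb9 is above T cells in both subsets (0.60 and 1.60), while Psmb8 is below them in 33D1 DCs (-0.31) and above them in DEC205 DCs (0.56).

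Few members were called between lymphocytes. Between B cells and T cells 2 of 33 members were called, where 13.1% of all genes were higher and 13.9% lower in B cells. Psma1, at 4318, 4364 and 5906 in B cells, lay above all T cell arrays (0.38 ± 0.14; limma, adjusted p = 0.044). Psme1 was lower in B cells, at 7789, 8723 and 10852, against 11725, 14411 and 14373 in CD8 and 10661, 11278 and 10293 in CD4 T cells (-0.41 ± 0.10; limma, adjusted p = 0.0033), and 1 B cell array overlapped the CD4 T cells. The Psma1 call was lost in 19 of 32 alternatives, array 3 of wild-type DEC205 DCs left out among them, which left 1 member. Between CD8 and CD4 T cells 0 of 33 members were called by limma, where 3.26% of all genes were, and 2 had an unadjusted p under 0.05. The larger of these differences was that of Psmb10 (0.43 ± 0.13; limma, adjusted p = 0.1), whose arrays overlapped. Psme1 was higher on every CD8 than on every CD4 T cell array (0.32 ± 0.12; limma, adjusted p = 0.18).

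The genes around the proteasome were counted in the same subset comparisons. Of 8 assembly chaperones, 2 were lower in 33D1 DCs in each mouse type and 0 higher, where 11.8% of all genes were lower in each, and the other 6 were not called. Pomp, which matures the beta rings, gave 6863, 6724 and 7974 in wild-type 33D1 DCs, against 11457, 13538 and 12993 in wild-type DEC205 DCs. In Flt3L mice it gave 5539, 6022 and 6033 in 33D1 and 11084, 11292 and 10588 in DEC205 DCs. The subsets did not overlap, and the differences were -0.81 ± 0.13 in wild-type (limma, adjusted p = 6.2e-05) and -0.90 ± 0.13 in Flt3L mice (limma, adjusted p = 1.8e-05). Psmg4, a chaperone of the alpha ring, differed by -0.86 ± 0.18 in wild-type and -0.78 ± 0.18 in Flt3L mice. Of 6 tested genes for other cap subunits and activators, Sem1, a small lid subunit, was lower in both mouse types (-0.39 in wild-type mice, -0.30 in Flt3L mice), and the rest were not called. The Sem1 call in Flt3L mice was lost without both arrays that carried markers of the other subset.

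Of 5 tested genes that handle ubiquitinated substrates, Vcp, the ATPase that pulls them from complexes and membranes, was lower in 33D1 DCs by -0.57 ± 0.10 in wild-type (limma, adjusted p = 0.00018) and -0.64 ± 0.10 in Flt3L mice (limma, adjusted p = 4.8e-05). The shuttle factor Rad23b was lower by -0.62 ± 0.16 in wild-type mice and -0.66 ± 0.16 in Flt3L mice, and the shuttle factor Ubqln1 was called higher in wild-type mice (0.34 ± 0.12; limma, adjusted p = 0.0499) and not in Flt3L mice (0.16 ± 0.12), a call that was lost without both of those arrays. The peptide transporter genes of the MHC were both lower in 33D1 DCs. Tap1 gave 4385, 3915 and 3706 in wild-type 33D1 DCs, against 8186, 7536 and 7333 in wild-type DEC205 DCs (-0.93 ± 0.09; limma, adjusted p = 7.1e-08), and differed by -0.64 ± 0.09 in Flt3L mice (limma, adjusted p = 1.6e-05). Tap2 differed by -0.998 ± 0.12 in wild-type and -1.39 ± 0.12 in Flt3L mice. Tap1 and Psmb9, on either side of the interval printed above, were thus both lower in 33D1 DCs. So were Tap2, Psmb8 and Psme1, which do not border that interval, and a part of the interval in these differences was not tested.

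Of 5 tested regulators, 2 were lower in wild-type mice and 1 in Flt3L mice, where 11.8% of all genes were lower in each. Irf8, a transcription factor that CD8-positive DCs require, gave 249, 456 and 250.3 in wild-type 33D1 DCs and 22699.6, 26772 and 24718 in wild-type DEC205 DCs (-6.12 ± 0.42; limma, adjusted p = 2.8e-10). In Flt3L 33D1 DCs it gave 341, 371 and 2407, the high value being that of the array with DEC205 markers, and 21295, 27557 and 26186 in Flt3L DEC205 DCs (-5.08 ± 0.42; limma, adjusted p = 4.6e-09). Nlrc5, the transactivator of MHC class I genes, was lower in wild-type 33D1 DCs (-0.91 ± 0.15; limma, adjusted p = 8.2e-05) and not called in Flt3L mice (-0.33 ± 0.15; limma, adjusted p = 0.13). Irf1, which mediates interferon induction of immunoproteasome genes, was not called in wild-type (0.06 ± 0.20; limma, adjusted p = 0.9) or in Flt3L mice (0.22 ± 0.20; limma, adjusted p = 0.5). Nfe2l1, which drives proteasome genes when the proteasome is inhibited, was not called either (0.01 ± 0.13 in wild-type and -0.16 ± 0.13 in Flt3L mice).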

How the data were processed

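The deposited values are MAS5 signal intensities per probe set, which the authors made in GCOS with MAS5 (per the submitters' processing notes). Program versions were not given in the sources used here. Among 45101 probe sets, 64 were controls, 34945 had 1 symbol in the platform annotation, 932 several and 9160 none. The 2% trimmed mean of each deposited array was 500, so arrays had been scaled before deposit. No other columns of samples were present (0).

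Probe sets had to exceed 156.3 (the overall median signal) on 3 or more of the 21 arrays. The probe set with the highest mean stood for each gene, leaving 13284 genes. Deposited intensities were transformed here as log2(signal + 48.6), where 48.6 is the 25th percentile of all signals, so differences of low genes are understated. One mean per group was fitted to all 21 arrays with lmFit of limma 3.58.1 (R 4.3.3), leaving 14 residual degrees of freedom, and eBayes was run with its trend option. The limma tests were two-sided, adjusted by Benjamini-Hochberg over all genes and called at an adjusted p under 0.05. The script was tested on simulated data. Within-array ratios were tested by exact permutation. Precision is limited by the 3 arrays in each group.

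Every member may be named; values on every array are given for the inducible subunits, their counterparts and up to 4 members with the smallest adjusted p in a comparison. Members and lists were chosen with earlier results of these data known. Over 13 pairings of groups, same-numbered arrays had residual correlations of -0.378 to 0.355. Only Flt3L 33D1 with Flt3L DEC205 DCs had every one over 0.1 (0.145 to 0.234). The main fit took no arrays as pairs, and the replicate numbers of the titles were used only in the block alternative. Arrays of unlike number were not compared, so these values do not establish that the arrays were paired. Alternatives varied the offset (16 and 200), the scaling, the filter, the choice of probe set, the trend, the replicate block and the arrays used. Promoters were taken from a RefSeq table on GRCm38.p6.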

Additional observations from a re-analysis of the deposited data

How the results depend on the processing

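The number of arrays sets the precision, and low signals near background carry little of it. Counts of called members in wild-type 33D1 minus DEC205 DCs (16) became 9 with median centring and 10 without both arrays that carried markers of the other subset, and 10 to 18 with 1 array left out, the lowest without array 3 of wild-type DEC205 DCs. Calls over all genes fell there too, from 11.8% lower and 11.3% higher to 15.9% in either direction with median centring and 19.4% without both arrays. The Flt3L subset count (15) became 7 with median centring and 11 to 16 with 1 array left out. Median centring left 16.4% of all genes called there, from 11.8% lower and 11.7% higher. DCs minus B cells (13) became 4 with median centring and 8 to 13 with 1 array left out, and DCs minus T cells (17) stayed within 13 to 17 on leaving out an array. Against B cells, median centring left 31% of all genes called, from 18.8% higher and 21.1% lower. B minus T cells (2) became 4 with quantile normalization, 0 with median centring, 1 with no filter, with the mean of probe sets, without the intensity trend, with the replicate block and without both mixed arrays, and 1 to 2 with 1 array left out. Over all genes, 28.6% were called between B and T cells with quantile normalization and 21.7% with median centring, from 13.1% higher and 13.9% lower. CD8 minus CD4 T cells (0) became 1 with quantile normalization, where 3.97% of all genes were called, and 0 to 1 with 1 array left out. The comparisons of single subsets with lymphocytes were chosen after seeing the data. There, 33D1 minus B cells (4) became 10 under quantile normalization and 2 under median centring, and 3 to 5 with 1 array left out. DEC205 minus B cells (15) became 9 with median centring and 11 to 18 with 1 array left out. The 33D1 minus T cells count (10) became 2 with median centring and 6 to 12 with 1 array left out, and DEC205 minus T cells (19) ranged over 14 to 21. Of all genes, median centring called 25.5% for 33D1 and 29.6% for DEC205 DCs against B cells, and 34.9% for 33D1 DCs against T cells. Quantile normalization called 35.1% for 33D1 DCs against B cells. The Flt3L and interaction counts were 0 in all alternatives run. With 1 array left out, the ratio differences were -0.395 to -0.328 for Psmb8 over Psmb5, -0.701 to -0.607 for Psmb9 over Psmb6 and 0.779 to 0.862 for Psmb10 over Psmb7. Over all 18 alternatives run for each, Psmb8 over Psmb5 reached -0.412 with the mean of probe sets and Psmb9 over Psmb6 reached -0.743 without both mixed arrays. The highest adjusted p by the exact permutation test was 0.01 without the replicate block and 0.0312 with it.

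With the replicate number as a block, 1 effect per number was fitted across all 7 groups. This fit gave 15 calls in the Flt3L subset comparison and 15 in the wild-type one. The main fit took no arrays as pairs in any comparison. The block fit gave 13 against B cells and 17 against T cells. For 33D1 and DEC205 DCs it gave 4 and 15 against B cells, and 11 and 19 against T cells. For the ratios, labels were exchanged within a number in both mouse types. The values stayed as they were, with an exact permutation p of 0.0312, the smallest that such exchanges allow. Among members not called, up to 11 of 31 changed sign in an alternative for B minus T cells, 10 of 33 for the interaction and 8 of 33 for each Flt3L comparison and for CD8 minus CD4 T cells. Among calls and Psmb10, these reversed, for causes that were not tested. With median centring Psmb10 turned to -0.0324 in wild-type and -0.0148 in Flt3L mice (33D1 minus DEC205), and with 1 array left out the Flt3L value lay between -0.0138 (without array 2 of Flt3L DEC205 DCs) and 0.189 (without array 1). With the mean of probe sets, Psmc6 turned to 0.16 (33D1 minus T cells) and Psmc2 to -0.0725 (DEC205 minus T cells).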

Other observations

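Of the 8 assembly chaperones, 1 was higher and 2 lower in wild-type DCs than in B cells, where 18.8% of all genes were higher and 21.1% lower, and 3 were higher and 3 lower than in T cells, where 22.7% were higher and 30% lower. Pomp was higher in wild-type DCs than in B cells (1.25 ± 0.12; limma, adjusted p = 8.3e-09) and than in T cells (1.05 ± 0.09; limma, adjusted p = 2.6e-09). Its signals were 6724 to 13538 in wild-type DCs, 3339.6 to 4758 in B cells, 4001 to 5718 in CD8 T cells and 4141 to 4886 in CD4 T cells, with no overlap between DCs and lymphocytes. Chaperones of the alpha ring moved in both directions. Psmg1 was lower in DCs than in T cells (-0.81 ± 0.12; limma, adjusted p = 8.8e-06) and Psmg2 lower than in both (-0.33 against B cells and -0.39 against T cells), while Psmg3 (0.45) and Psmg4 (0.38) were higher than in T cells. Of 5 tested genes that handle ubiquitinated substrates, 3 were higher in DCs than in B cells and 3 higher than in T cells. Of 6 other cap and activator genes, 1 was higher than in B cells, and 3 were higher and 1 lower than in T cells. Vcp was higher in DCs by 0.49 against B cells and 0.47 against T cells, and Sem1 by 0.45 against B cells and 0.55 against T cells. Psmd5, a chaperone of the cap base, was lower in DCs (-0.43 against B cells and -0.36 against T cells).

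Of 5 tested regulators, 1 was higher and 1 lower in DCs than in B cells, where 18.8% of all genes were higher and 21.1% lower. Against T cells 2 were higher and 2 lower, where 22.7% of all genes were higher and 30% lower. Nlrc5 was higher in DCs than in B cells (0.44 ± 0.13) and lower than in T cells (-0.91 ± 0.11), and Nfe2l2, the regulator of oxidative stress genes, was lower in DCs than in T cells (-0.52 ± 0.11). Between B cells and T cells, Nlrc5 (-1.35 ± 0.13) and Tap2 (-0.59 ± 0.10) were lower in B cells, as were 13.9% of all genes. Between CD8 and CD4 T cells none of these genes was called by limma, where 3.26% of all genes were.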
